A study of Homo sapiens with 2 samples.

Results

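Genes of DNA replication were looked up in the HA-RFX6 peak list of MHCC-97H, a cell line of human hepatocellular carcinoma (HCC). The set held 58 genes out of 20037 protein-coding genes, chosen by their function but with earlier results of these data known. They cover origin recognition and licensing, the replicative helicase, the DNA polymerases, the sliding clamp with its loader, and the supply of nucleotides. The cells overexpressed the transcription factor RFX6, a member of the regulatory factor X (RFX) proteins, with an HA tag, and formaldehyde-fixed chromatin was precipitated through that tag before sequencing. The series comprised 1 ChIP library of these HA-RFX6 cells and 1 MHCC-97H input library. Only a peak list of the ChIP library was analysed here. Whether the input came from cells with HA-RFX6, and whether the cells were 1 clone, is not given in the sources used here. A ChIP without HA-RFX6 was not analysed here. The cell type could not be checked against markers, as a peak list holds no expression values.

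Before a chromosome is copied, the origin recognition complex (ORC) marks origins, and CDC6 and CDT1 load the MCM2 to MCM7 ring onto them. The kinase CDC7 with its partner DBF4 then fires the origin, CDC45 and the GINS complex complete the helicase, and polymerases alpha, delta and epsilon synthesise the new strands behind it. Many of these genes are switched on at the G1 to S transition by E2F factors, and tumour cells that divide rapidly often express them strongly. RFX factors bind the X-box, a pair of inverted half-sites that is best known from genes of cilia and of antigen presentation.

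An interval of the list was counted at a gene end when its midpoint lay within 1 kb of either end of the gene. By this rule 16 of the 58 replication genes had an interval at an end, which was 27.6% (95% Wilson interval 17.8% to 40.2%). Among all protein-coding genes the share was 15.5%, below that interval. A further gene, ORC4, had an interval in its body only, so that 17 genes (29.3%, 19.2% to 42.0%) had an interval at an end or in the body. The corresponding share of all protein-coding genes was 19.5%, inside the interval. The remaining 41 genes had no interval. These intervals cover the counting of genes only, since there was 1 library without replicates, and no test was made. As the genes were chosen with earlier results known, the comparison with all protein-coding genes is a description only. When only intervals with a score of at least 30 were kept, 8 genes were left (13.8%, 7.16% to 24.9%), compared with 9.5% of all protein-coding genes, and the higher share of the replication genes was then within counting error.

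The genes with an interval were then counted by their role, beside the share of all protein-coding genes with an interval at an end, 15.5%. Of the polymerase genes, POLD1, POLD2, POLD4, POLE3, POLE4 and POLA2 had an interval at an end. For polymerase delta, which mainly copies the lagging strand, these were 3 of 4 genes. For polymerase epsilon, which mainly copies the leading strand, they were 2 of 4, and for polymerase alpha with primase 1 of 4. POLD3, POLE, POLE2, POLA1, PRIM1 and PRIM2 had no interval. The loader of the sliding clamp gave 3 of its 5 subunits, RFC2, RFC4 and RFC5, whereas the clamp PCNA itself had no interval. Of the 6 ORC genes, ORC5 and ORC6 had an interval at an end and ORC4 in the body. Among the licensing genes, GMNN, which encodes the CDT1 inhibitor geminin, had an interval, and CDC6 and CDT1 had none. The helicase core gave 1 of 6 genes, MCM2. None of the 5 genes of CDC45 and GINS had an interval. The same was true of the 3 genes for MCM8, MCM9 and MCM10, the 2 kinase genes CDC7 and DBF4, the 3 subunits of the single-strand binding protein RPA, and the 4 genes LIG1, FEN1, DNA2 and RNASEH2A, which finish the lagging strand. Fork protection gave TIMELESS out of 4 genes, and nucleotide supply gave RRM1 and TYMS, but not RRM2 or TK1. With 2 to 6 genes in a group, such counts are compatible with wide ranges, for example 30.1% to 95.4% for polymerase delta and 0% to 43.4% for CDC45 and GINS. The 15.5% of all protein-coding genes lay inside the range of each group that had no interval, so their lack of intervals does not set them apart. It lay below the range only for polymerase delta and for the clamp with its loader (18.8% to 81.2%). Of the genes in these groups, only POLD1 and RFC2 kept an interval at a score of at least 30. RFC4 and RFC5 had a score of 13, the lowest in the list.

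**Figure D1:**
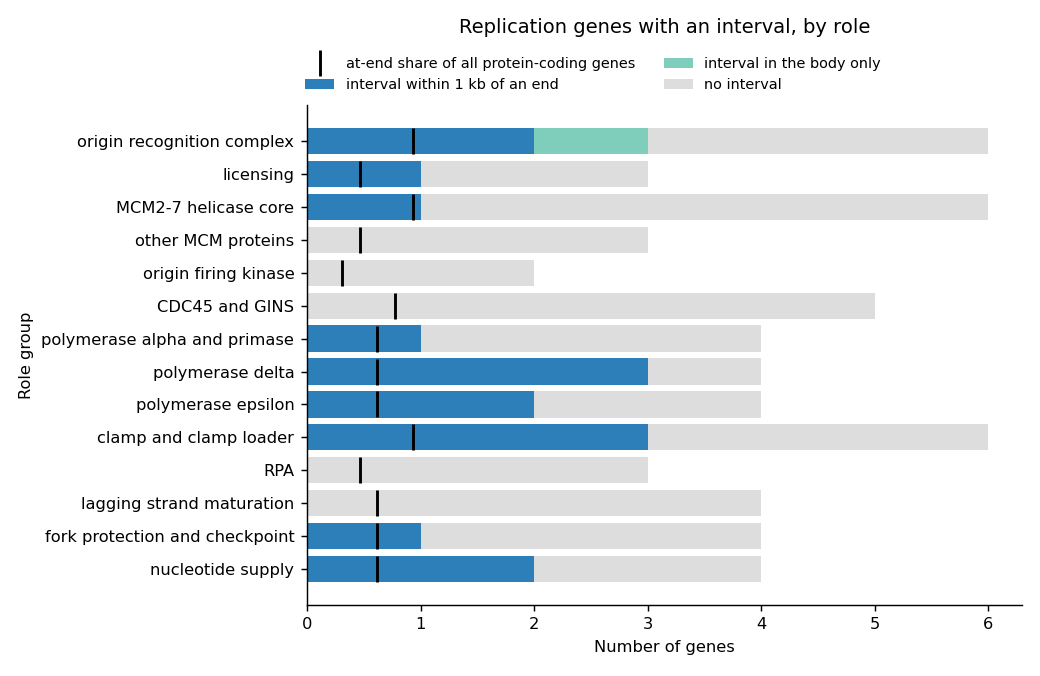
Number of replication genes (x axis) with an interval within 1 kb of an end, in the body only, or without one, for each of the 14 role groups (y axis). The black marks show the number that the share of all protein-coding genes, 15.5%, would give, and the count was 3 of 4 for polymerase delta and 0 of 5 for CDC45 and GINS.

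The authors' score ranks the intervals of the list, from 13 to 170 with a median of 30, and what it stands for is not stated. The highest score among the replication genes was 63, at ORC6, which encodes the smallest ORC subunit. This interval, chr16:46689333-46689556 (GRCh38), ranked 232 of 5019 and ran from position -326 to -103 relative to the start of ORC6. A second, weaker interval with a score of 21 lay 420 to 625 bp inside the gene. ORC6 was the only one of the 16 genes with more than 1 interval at an end. Of all protein-coding genes with an interval at an end, 15.1% had 2 or more.

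MCM2, a subunit of the helicase ring, followed with a score of 60 and rank 304. Its interval, chr3:127598142-127598366, ran from position -269 to -45 relative to the start of MCM2. At GMNN, the interval chr6:24774779-24775234 scored 56 (rank 401) and covered the start of the gene. At POLE3, which encodes a small histone-fold subunit of polymerase epsilon, the interval chr9:113410421-113410646 also scored 56, and it lay 103 to 328 bp downstream of the start. At TIMELESS, which encodes a protein of the fork protection complex, the interval chr12:56449254-56449453 scored 50 (rank 615) and covered the start. The percentiles of these 5 intervals in the list were between 86.6 and 95.0.

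The promoter sequences with the highest scores are shown to place the intervals on the bases themselves. They are taken from the RefSeq promoter table (GRCh38.p14), which had an entry for 51 of the 58 genes. Given are the 250 bases before the start, 5′ to 3′ in the direction of transcription, for the 6 genes with the highest scores among those whose interval reached the promoter window. Capitals mark the bases covered by the interval. The positions are chr16:46689409-46689658 (plus strand) for ORC6, chr3:127598161-127598410 (plus) for MCM2, chr6:24774687-24774936 (plus) for GMNN, chr12:56449427-56449676 (minus) for TIMELESS, chr19:50384073-50384322 (plus) for POLD1 and chr18:657403-657652 (plus) for TYMS.
ORC6: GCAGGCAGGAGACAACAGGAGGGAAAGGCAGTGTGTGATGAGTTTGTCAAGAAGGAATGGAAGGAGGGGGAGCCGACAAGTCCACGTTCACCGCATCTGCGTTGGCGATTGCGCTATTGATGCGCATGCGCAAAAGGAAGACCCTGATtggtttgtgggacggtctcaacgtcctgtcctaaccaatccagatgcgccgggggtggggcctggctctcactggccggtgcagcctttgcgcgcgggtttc
MCM2: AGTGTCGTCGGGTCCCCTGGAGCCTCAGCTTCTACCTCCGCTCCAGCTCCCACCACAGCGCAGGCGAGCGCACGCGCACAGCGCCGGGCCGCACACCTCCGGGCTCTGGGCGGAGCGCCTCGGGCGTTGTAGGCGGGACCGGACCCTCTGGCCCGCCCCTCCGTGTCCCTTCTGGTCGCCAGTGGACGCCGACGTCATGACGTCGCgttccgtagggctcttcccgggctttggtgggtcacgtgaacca
GMNN: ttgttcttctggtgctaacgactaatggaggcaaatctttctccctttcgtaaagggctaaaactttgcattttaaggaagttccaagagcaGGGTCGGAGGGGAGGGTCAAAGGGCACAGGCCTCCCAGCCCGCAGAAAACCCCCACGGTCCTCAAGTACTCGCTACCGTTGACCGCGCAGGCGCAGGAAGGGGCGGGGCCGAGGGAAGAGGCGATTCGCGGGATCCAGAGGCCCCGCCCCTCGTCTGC
TIMELESS: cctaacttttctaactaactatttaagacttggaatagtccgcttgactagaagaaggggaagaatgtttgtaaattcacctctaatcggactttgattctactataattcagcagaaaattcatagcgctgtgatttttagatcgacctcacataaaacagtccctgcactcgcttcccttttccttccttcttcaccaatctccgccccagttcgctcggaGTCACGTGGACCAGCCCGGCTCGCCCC
POLD1: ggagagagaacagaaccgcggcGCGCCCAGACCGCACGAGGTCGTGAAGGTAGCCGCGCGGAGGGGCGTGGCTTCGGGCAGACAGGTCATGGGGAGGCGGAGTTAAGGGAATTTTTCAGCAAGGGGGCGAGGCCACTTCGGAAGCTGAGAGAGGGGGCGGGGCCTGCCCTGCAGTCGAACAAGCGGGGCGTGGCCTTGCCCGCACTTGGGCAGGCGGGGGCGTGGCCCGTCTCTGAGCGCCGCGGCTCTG
TYMS: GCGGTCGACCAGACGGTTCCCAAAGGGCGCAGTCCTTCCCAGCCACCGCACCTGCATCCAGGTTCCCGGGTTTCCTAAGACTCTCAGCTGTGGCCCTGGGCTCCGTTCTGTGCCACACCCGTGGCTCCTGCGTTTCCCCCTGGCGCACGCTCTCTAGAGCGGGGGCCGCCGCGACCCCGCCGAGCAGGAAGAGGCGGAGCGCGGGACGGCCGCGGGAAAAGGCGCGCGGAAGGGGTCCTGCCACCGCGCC

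The interval covered 148 of these 250 bases at ORC6, 206 at MCM2, 158 at GMNN, 228 at POLD1 and all 250 at TYMS. At TIMELESS only the last 27 bases before the start were covered, as most of that interval was downstream. The POLE3 interval reached none of the promoter window.

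The other 12 intervals at ends of replication genes scored between 13 and 33. POLD1, the catalytic subunit of polymerase delta, and TYMS, the thymidylate synthase that provides dTMP, each had a score of 33. The POLD1 interval was chr19:50384095-50384359, and the TYMS interval, chr18:657385-657655, also overlapped the antisense gene TYMSOS. RFC2 followed with a score of 30 over a broad interval of 676 bp, chr7:74254135-74254810, the widest at a replication gene.

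Scores of 27 were found at POLD2, the second subunit of polymerase delta (chr7:44123385-44123882), and at ORC5 (chr7:104207911-104208145). POLA2, the B subunit of polymerase alpha, had 24 (chr11:65261738-65261937). RRM1, the large subunit of ribonucleotide reductase (chr11:4094710-4094961), and POLE4 (chr2:74958795-74958996) each had 22, and POLD4, the smallest subunit of polymerase delta (chr11:67353095-67353299), had 21. All of these lay under the median of the list.

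RFC4 (chr3:186806631-186806856) and RFC5 (chr12:118016649-118016979) had a score of 13, the lowest in the list, so that 2 of the 3 clamp loader genes were at the floor of the calls. Without scores below 20, 14 replication genes kept an interval at an end, and these 2 were the ones lost.

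Across the 17 intervals at ends of replication genes, the median score was 27 (quartiles 22 and 50). For the 3054 intervals at ends of any protein-coding gene, it was 32 (quartiles 25 and 43). The scores fell apart into 5 values from 50 to 63 and 12 values from 13 to 33. No score lay between 34 and 49, a range that held 27.9% of all intervals at protein-coding gene ends. The limit of 50 was set after the scores were seen, and 29.4% of the replication intervals reached it, compared with 16.5% of all. With only 5 of 17 intervals, this difference is a description only. The replication genes thus included intervals of high rank, but their middle score was not above that of other gene ends. The median width was 226 bp (200 to 676 bp), compared with 282 bp. On more than 1 line were listed 4 of the 17, close to the 22.3% of all intervals at protein-coding gene ends.

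**Figure D2:**
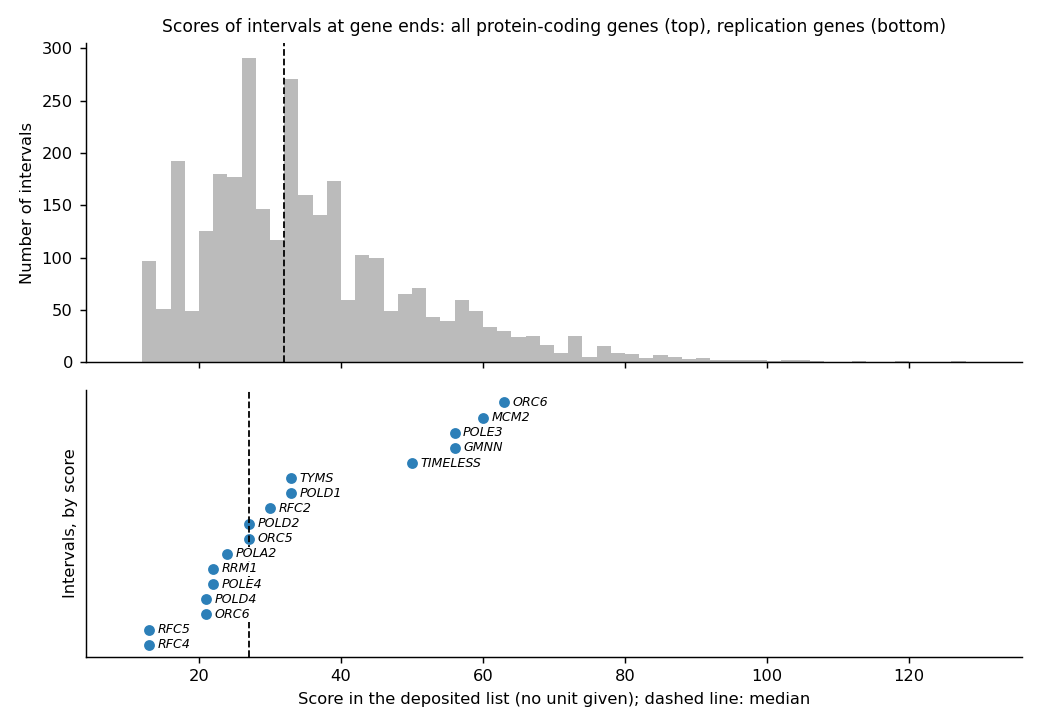
Score in the deposited list (x axis) of the 3054 intervals at protein-coding gene ends (top, number of intervals) and of the 17 intervals at replication genes (bottom, 1 point each, ordered by score). The dashed lines are the medians, 32 and 27, and ORC6, MCM2, POLE3, GMNN and TIMELESS stand apart at 50 to 63.

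The position of the intervals relative to the start was then examined. The start side was known for the 51 genes with a promoter entry, and in all 16 genes the interval lay at the start. This was 31.4% of the 51 genes, against 15.1% of all protein-coding genes with an entry. At the far end alone there was no interval in any replication gene, but the background was only 1.07%, so that a count of 0 says little. Of the 17 intervals, 8 (47.1%) covered the start, 4 (23.5%) lay upstream of it and 5 (29.4%) downstream. For all protein-coding genes these shares were 36.6%, 29.7% and 33.8%. The midpoints ranged from position -261, at RFC4, to position 522, at the second interval of ORC6. Their median distance from the start was 133 bp in either direction, compared with 206 bp for all protein-coding genes. For POLD2 the RefSeq promoter entry starts inside the annotated gene, and the midpoint of its interval was at position -85 from that start but 692 bp from the gene end.

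**Figure D3:**
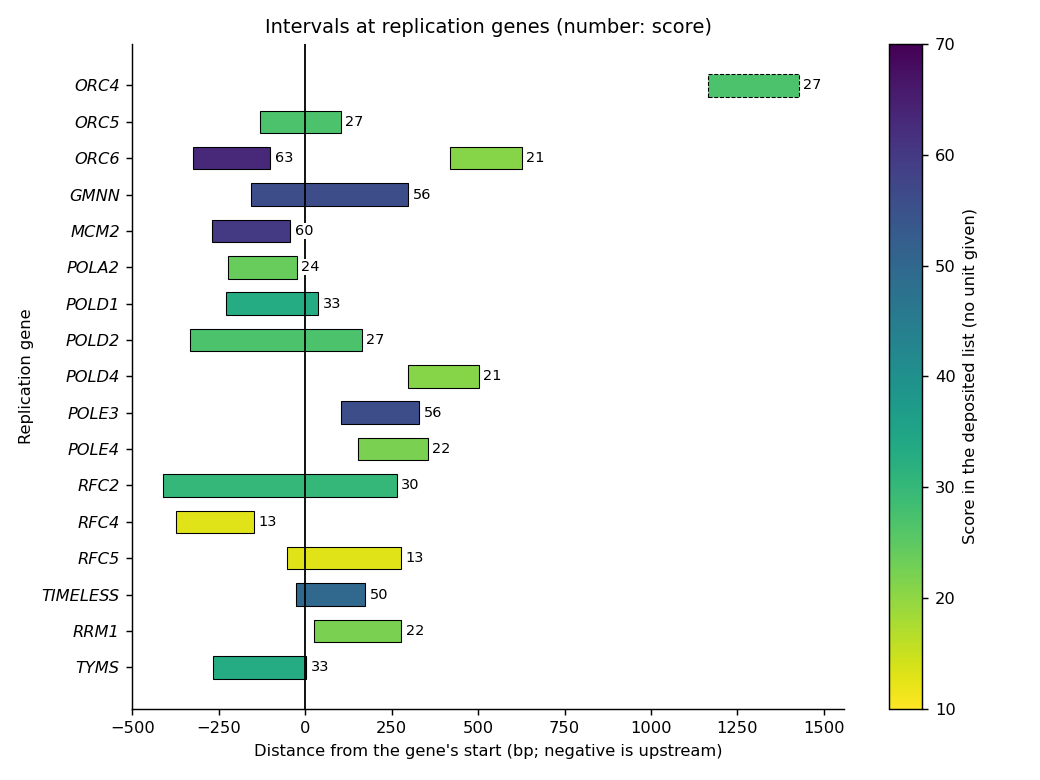
Intervals at the 17 replication genes (rows), drawn to scale by their distance from the start of each gene in bp (x axis, negative is upstream), with the score as colour and number. All intervals with a solid outline lay within 1 kb of the start, and the dashed one at ORC4 began 1165 bp inside the gene.

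Some of these promoters are shared with a neighbouring gene, and the list cannot say to which gene an interval belongs. For 5 of the 16 genes (31.2%), the interval was also within 1 kb of an end of another protein-coding gene, and for all protein-coding genes with an interval at an end the share was 31.3%. Of the 5 highest scores, 4 were of this kind. At MCM2, the midpoint was 157 bp from MCM2 but 23 bp from an end of TPRA1, and the interval overlapped TPRA1 only. At POLE3, it was 216 bp from POLE3 and 214 bp from C9orf43. The ORC6 interval was closer to ORC6 (215 bp) than to VPS35 (266 bp), which encodes a subunit of the retromer complex. The TIMELESS interval was 73 bp from TIMELESS and 149 bp from MIP, the gene of a lens aquaporin. At POLD1, the other end was that of NR1H2, the gene of liver X receptor beta, at 839 bp, against 96 bp for POLD1. When an interval was assigned to the nearest end only, MCM2 and POLE3 went to their neighbours and 14 replication genes kept an interval. GMNN had the highest score without a second coding gene.

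The ORC4 interval, chr2:148020124-148020386, had a score of 27. It lay 1296 bp from the start end of ORC4, just outside the 1 kb window, and 672 bp from an end of MBD5, a gene of the methyl-CpG-binding domain family.

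For the 41 genes without an interval, the distance to the nearest one was measured. It was not measured for other protein-coding genes, so it cannot be read as a trait of this set. The median distance from the gene to the closest midpoint was 197377 bp, it exceeded 25 kb for 34 genes and 100 kb for 29. FEN1, the flap endonuclease of lagging strand maturation, came closest, with an interval of score 48 at a distance of 2387 bp, inside TMEM258. TK1, the thymidine kinase, followed at 5478 bp, where the interval (score 32) was at an end of SYNGR2. For CDC6 the distance was 7777 bp, and the interval (score 28) was inside RARA. Next came RNASEH2A at 12797 bp, CDT1 at 21847 bp, POLE at 23527 bp and DBF4 at 24807 bp. PCNA, which is often used as a marker of S phase, had no interval within 427806 bp, and for MCM4 the nearest was 4736063 bp away. The interval closest to PRIM1, at 282227 bp, was the one at TIMELESS. The read depth is unknown, so that no interval at a gene does not mean no enrichment there.

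The promoter windows were searched for short motifs, from 250 bases before to 50 after the start, on both strands. The X-box half-site GTTGCC was found in 1 of the 16 promoters with an interval at an end (6.25%) and in 5 of the 35 without (14.3%), compared with 12.2% of all 35116 promoters in the table. The X-box was searched as GTNNCC, 2 bases, and NGNAAC, and half-sites at other spacings were not searched. This X-box pattern occurred in 1 of 16 (6.25%) and 0 of 35, and in 2.28% of all promoters. Of protein-coding promoters with an interval at an end, 12.3% held the half-site and 2.62% the X-box. Both matches in replication gene promoters with an interval were in POLD2, at the same place. There the interval covered the whole 250 bases before the start. The POLD2 promoter was chosen for display after this match was seen. It is given in the same way (chr7:44123549-44123798, minus strand), and the match runs from position -182 to -169 and reads GTTGCCCAGGAAAC.
POLD2: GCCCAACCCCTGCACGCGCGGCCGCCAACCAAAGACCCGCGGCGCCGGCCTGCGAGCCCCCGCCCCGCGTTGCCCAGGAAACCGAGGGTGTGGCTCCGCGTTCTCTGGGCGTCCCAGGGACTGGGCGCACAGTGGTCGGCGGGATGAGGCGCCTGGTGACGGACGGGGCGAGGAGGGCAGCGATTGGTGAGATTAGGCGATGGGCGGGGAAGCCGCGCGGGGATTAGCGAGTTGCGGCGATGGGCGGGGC

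Thus the 6 promoters with the highest scores shown above hold neither pattern in this window. The E2F pattern TTTNNCGC was frequent in replication genes regardless of an interval. It was present in 6 of 16 promoters with an interval (37.5%), namely MCM2, ORC6, POLA2, POLE4, RFC5 and TYMS, and in 19 of 35 without (54.3%), such as MCM3, MCM6, MCM7, CDC6 and PCNA. Of all promoters in the table, 6.89% held it, and of protein-coding promoters with an interval at an end, 10.7%. At MCM2 and POLE4 the E2F match lay outside the interval. The NFY pattern CCAAT gave the same order, with 7 of 16 (43.8%) and 23 of 35 (65.7%). All promoters gave 34.6%, and protein-coding promoters with an interval at an end gave 36.6%.

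The NRF1 pattern GCGCATGC was seen in 3 of 16 promoters with an interval (18.8%), those of ORC6, POLA2 and POLE4, and in 1 of 35 without (2.86%), that of CDT1. All promoters gave 3.05%, and protein-coding promoters with an interval at an end gave 5.92%. At ORC6 and POLA2 this match overlapped the E2F match, and at both genes the interval covered it. At POLE4 the NRF1 match lay outside the interval. The SP pattern GGGCGG was common with and without an interval, with 12 of 16 (75.0%) and 25 of 35 (71.4%), against 45.0% of all promoters. Protein-coding promoters with an interval at an end gave 76.9%, so the replication genes did not exceed them. The ETS pattern CCGGAAG was found in 1 of 16, RFC4, and in 7 of 35 (all promoters 10.3%), and the YY1 pattern AAGATGGCG in none of the 51 (1.75%). Among protein-coding promoters with an interval at an end, the shares were 20.5% for ETS and 4.45% for YY1. These are letter matches and not binding sites, and with 16 promoters a difference of a few genes is within counting error.

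**Figure D4:**
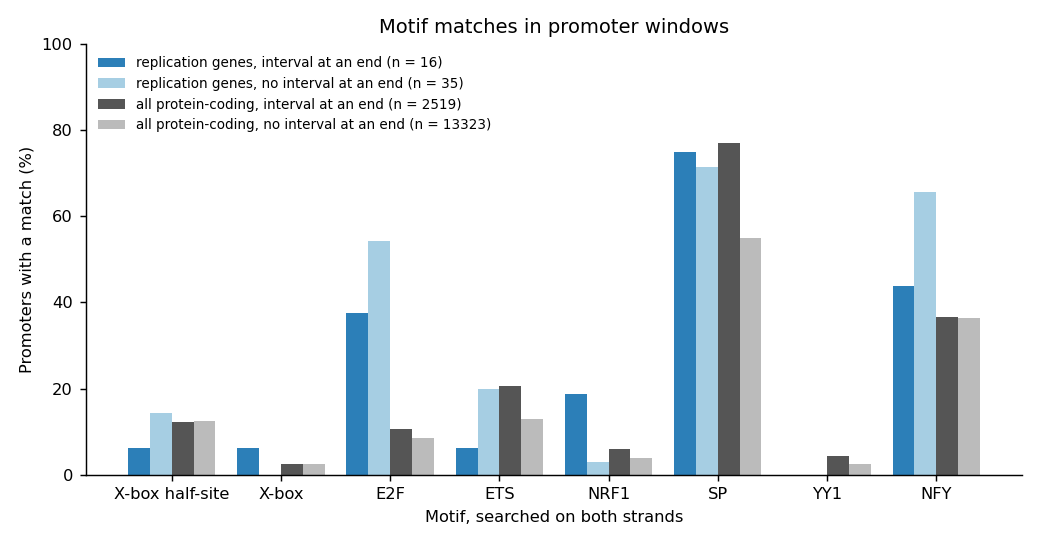
Share of promoter windows with at least 1 match (y axis, %) for 8 motifs (x axis), for replication genes with and without an interval at an end and for all protein-coding genes split in the same way. For E2F the bars of the replication genes reach 37.5% and 54.3%, against 10.7% and 8.52% in all protein-coding genes.

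Further genes of the pathway were taken from a list of 43 other replication genes, which was also chosen with earlier results known. Of these, 13 had an interval at an end (30.2%, 18.6% to 45.1%), compared with 15.5% of all protein-coding genes. The highest score at an end was 49, at RTEL1, a DNA helicase, which had 3 further intervals in its body. DNMT1, the maintenance DNA methyltransferase, had 39, and CHTF8, a subunit of an alternative clamp loader, had intervals of 38 and 28 near ends of UTP4 and DERPC as well. CTPS1, the CTP synthase, had 34 and 14. RRM2B, the p53-inducible subunit of ribonucleotide reductase, had 34, whereas its paralogue RRM2 had no interval.

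The histone chaperone genes ASF1B and CHAF1B had 32 and 27, and RIF1, a regulator of replication timing, had 32. TOP1, the type I topoisomerase, had 30 and 25, and DUT, the dUTPase, had 30. RNASEH2C had 27, but the midpoint was nearer to an end of KAT5 (509 bp) than to one of RNASEH2C (685 bp). CINP had 25, and this interval was likewise nearer to TECPR2 (267 bp) than to CINP (318 bp) and overlapped TECPR2 only. CCNE2, the gene of cyclin E2, had 22 and 21. At CCNE2, stronger intervals of 80 and 39 lay inside the gene, and all 4 were within 1 kb of an end of NDUFAF6.

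Among 20 genes of the E2F, RB and DREAM regulators, 6 had an interval at an end (30%, 14.5% to 51.9%). The share of all protein-coding genes, 15.5%, lay inside this interval. E2F1 and E2F2, activators of replication genes, had scores of 62 and 57. FOXM1 had 41, shared with RHNO1, MYBL2 had 34, and E2F7 and TFDP1 had 17. RBL1, the gene of the pocket protein p107, had an interval of 45 in its body only, on the line that had been written with digit separators.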

How the data were processed

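The data are a ChIP-seq experiment on HA-RFX6 in MHCC-97H cells. According to the study's methods and the submitters' processing notes, peaks were called with MACS2 2.1.0.2, and the aligner is not given in the sources used here. The authors deposited a headerless peak list with a whole-number score, whose meaning is not stated. It was used for ranking and filtering only. Read depth is unknown and fold enrichment was not analysed here.

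Of 6214 lines, 1 with digit separators was repaired. Lines with identical positions were counted once with their highest score, which left 5022 intervals, of which 5019 on chromosomes 1 to 22 and X were used. The processing notes name GRCh37, but 60.8% of the midpoints lay within 1 kb of protein-coding gene ends of RefSeq GRCh38.p14, so that GRCh38 was used. Positions are 1-based, with deposited starts read as 0-based. Genes came from the RefSeq gene table, and starts, strands and sequences from its promoter table. In distances, the first base of the gene is 0.

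All 58 symbols were found. The genes and lists were chosen with earlier results of these data known. Every gene of the 58 with an interval was named, as were the genes of the other lists with an interval at an end, and up to 6 promoters by score were printed. The values of 1 gene of the other lists are not reported here. No test over genes was made. Alternatives were scores of at least 20 or 30, merging within 1 kb, any overlap of at least 1 bp, the nearest gene end, the start only, and a window widened to 2 kb or 5 kb. Gene assignment was tested on simulated data. Wilson intervals at 95% cover counting error only. Python 3.11.15, numpy 2.4.6, pandas 2.3.3, scipy 1.17.1 and matplotlib 3.10.9 were used.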

Additional observations from a re-analysis of the deposited data

How the results depend on the processing

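With a score of at least 30, the number of replication genes with an interval at an end fell from 16 to 8, and that at an end or in the body from 17 to 8. The corresponding shares of all protein-coding genes were 9.5% and 12%. Fewer intervals enter this count by construction. Under the other alternatives the first count ranged from 14 (scores of at least 20, or nearest end only) to 18 (window of 5 kb, which adds ORC4 and FEN1), and the second from 15 to 18. The share of all protein-coding genes with an interval at an end then ranged from 13.4% to 19.8%, below that of the replication genes in each case. With an interval at an end or in the body, the share of all protein-coding genes ranged from 17.3% to 21.9%. This lay inside the Wilson interval of the replication genes in each case. Merging and any overlap kept the same 16 genes. No paired analysis was possible because the peaks came from 1 library without replicates, and no replicate could be left out. Without counts or depth, neither the precision of a score nor a missed interval can be judged.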

Other observations

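The replication genes were not concentrated on chromosomes rich in intervals. Averaged over the 58 genes, the share of protein-coding genes on the same chromosome with an interval at an end was 15.7%, close to the 15.5% of all chromosomes. Both genes on chromosome 3, MCM2 and RFC4, had an interval, as had 3 of 5 on chromosome 11 (RRM1, POLA2 and POLD4). On chromosome 17, 0 of 3 had one, and on chromosome 1, 0 of 4. The shares of all protein-coding genes there were 21.7%, 17.8%, 20.1% and 13.9%, in the same order. With so few genes on a chromosome, these counts say little. The 3 genes on chromosomes 4, 13 and X, namely RFC1, RFC3 and POLA1, had none, where the shares of all protein-coding genes were only 4.94%, 5.62% and 2.95%.

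The genes with an interval were shorter, with a median length of 22898 bp, than the 41 genes without (44660 bp), and the median of all protein-coding genes was 24115 bp. The GC content of the promoter windows had a median of 66.3% in the 16 replication genes with an interval at an end and 65.0% in the 35 without. In all protein-coding genes it was 68.0% with and 61.7% without an interval at an end. The part of GC content and of length in the counts was not tested.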
